A study of Mus musculus with 12 samples.

Results

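Membrane carriers for sugars, amino acids and other organic solutes were described in colonic epithelial cells of mice with and without Nfkb2. The members were all protein-coding genes of the solute carrier families Slc1, Slc2, Slc3, Slc5, Slc6, Slc7, Slc15, Slc16, Slc22, Slc23, Slc28, Slc29, Slc36, Slc38 and Slc43, taken by gene symbol. This gave 144 of the 46517 gene IDs in the count tables. A further 5 symbols of these families belong to pseudogenes or non-coding genes and were left out, and 1 member taken by symbol, Slc7a6os, is a gene opposite Slc7a6 that encodes no carrier. The rule itself uses no measured value.

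RNA came from colonic intestinal epithelial cells of C57BL/6 mice aged 7 to 9 weeks. The mice were wild-type (WT) or Nfkb2-/- (KO), and mice of each genotype received no treatment or 48 h of dextran sulfate sodium (DSS), a sugar polymer used to damage the lining of the colon. Each of the 4 groups had 3 samples, which the design text calls biological replicates. Nfkb2 encodes p100, the precursor of the NF-kB subunit p52. The KO animals are -/- in the labels, which name no cell type or promoter, so the loss is not described as limited to the epithelium. Epithelial cells were shaken off colon pieces with EDTA, and about 90% were typically CD45.2-EpCAM+, so the samples were bulk RNA of a mixed, mostly epithelial population.

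Solute carriers move small molecules across cell membranes. Some are driven by the sodium or proton gradient, and others exchange one solute for another or let it run down its own gradient. In the colon, the epithelium takes up butyrate and other short-chain fatty acids made by bacteria as its main fuel, recovers amino acids and small peptides, imports glucose from the blood side, and clears serotonin released by enteroendocrine cells. Several of these carriers work as pairs, with a heavy subunit such as Slc3a1 or Slc3a2 that brings a light chain of the Slc7 family to the membrane, or with basigin (Bsg) as the partner of Slc16 carriers.

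Total counts per sample ranged from 5595909 to 8117740. Nfkb2 itself was at 30.7 to 46.0 CPM (counts scaled to library size with TMM factors) in the 6 WT samples and at 11.7 to 19.6 CPM in the 6 KO samples, with no overlap. The summed CPM of 8 epithelial markers was 20440 to 29100 in all 12 samples. The summed CPM of 7 markers of absorptive colonocytes was 10370 to 11560 in untreated WT, 2708 to 3006 in WT under DSS, 6081 to 6720 in untreated KO and 2866 to 3385 in KO under DSS. That of 12 leukocyte markers was 12.6 to 20.5, 41.9 to 48.2, 47.6 to 63.6 and 84.4 to 118 CPM in the same order, with Adgre1 at 0 in untreated WT. In bulk RNA, fewer cells of a type and less RNA per cell cannot be told apart. In the labels' library numbers all WT samples come before all KO samples, so an effect of genotype and one of library order cannot be told apart.

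Detection separated the families. Of the 144 members, 79 had enough counts to be tested and 65 did not. Among the 65, 31 had no count in any of the 12 samples, 12 had 1 to 3 counts in all samples together, 20 had 4 to 50, and 2 had more (Slc23a1 with 51 and Slc1a3 with 70). A floor of 3 counts in a sample corresponded to 0.356 to 0.529 CPM, and a count of 0 allows a level up to that floor. The organic anion, urate and orphan Slc22 carriers, many of them known from kidney and liver, had 2 tested members of 17, and 11 were at 0 in every sample. All 12 facilitative hexose and polyol carriers had at least 1 count, and 9 were tested, but Slc2a2, the glucose carrier of liver and small intestine, had 3 counts over all samples. Among the nucleoside and nucleobase carriers, 9 of 10 were tested.

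A few genes held most of the signal. Levels are given here in RPKM, the TMM-scaled CPM divided by the summed exon length in kilobases, so that genes can be compared. Slc6a14, a sodium- and chloride-coupled carrier of neutral and cationic amino acids, averaged 757 RPKM over the 12 samples, which was 42.97% of the summed RPKM of all members. Next came Slc5a8, the sodium-coupled carrier of butyrate and lactate, with 211 RPKM and 12%. Slc16a1, the proton-coupled carrier of the same monocarboxylates, followed with 120.3 RPKM, then Slc5a1, the sodium-coupled glucose carrier, with 101 RPKM, Slc22a18, an orphan carrier, with 78.9 RPKM, Slc2a1, a facilitative glucose carrier, with 52.2 RPKM, and Slc1a5, a glutamine carrier, with 49.9 RPKM. The 20 highest genes held 91.6% of the sum, and 29 members reached 5 RPKM.

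**Figure D1:**
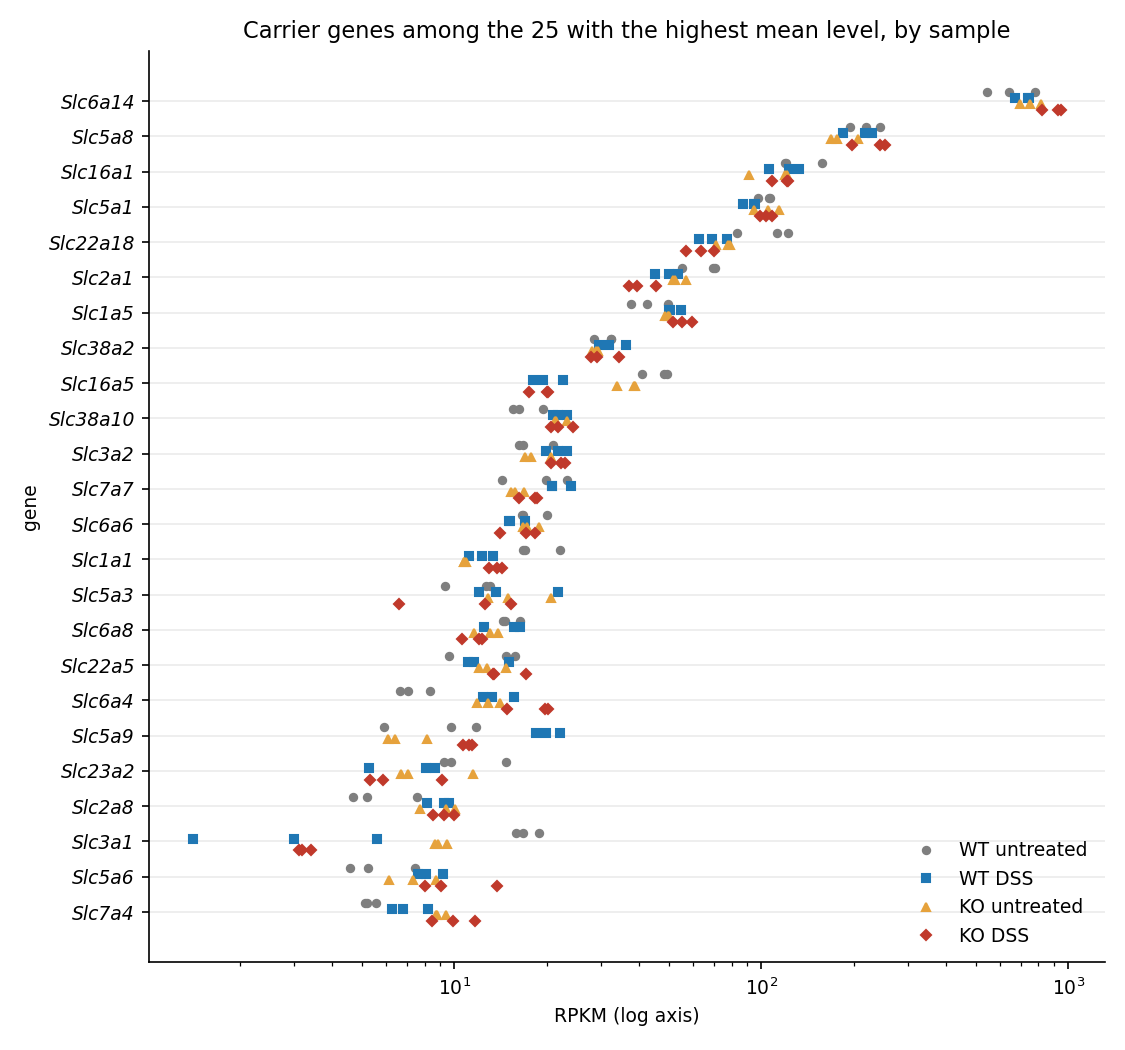
Levels of carrier genes among the 25 with the highest mean, 1 point per sample (RPKM on a log axis, 4 groups of 3). Slc6a14 lies above all other carriers in every sample, and the points of Slc3a1 and Slc16a5 in untreated WT lie above those of WT under DSS.

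The 4 most abundant carriers, Slc6a14, Slc5a8, Slc16a1 and Slc5a1, passed the test in no comparison. Slc6a14 was at 2678, 2199 and 1865 CPM in untreated WT, 2542, 2306 and 2549.7 CPM in DSS-treated WT, 2802, 2577.5 and 2398 CPM in untreated KO, and 3183, 3262 and 2816.5 CPM in KO under DSS. The 3 KO samples under DSS were above the other 9 samples, the lowest of them by a small margin. Its log2 difference was 0.13 for DSS in WT (95% interval -0.11 to 0.38), 0.25 for DSS in KO (0.01 to 0.50) and 0.32 for KO against WT under DSS (0.08 to 0.57, edgeR adjusted p = 0.175). That last difference was called with no filter, with only the DSS groups fitted and without WT untreated replicate 3.

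Slc5a8 was at 1295, 1171 and 1038 CPM in untreated WT, 1222, 986 and 1162 CPM in DSS-treated WT, 1105, 944 and 901 CPM in untreated KO, and 1298, 1346 and 1050.0 CPM in KO under DSS. The 4 groups overlapped. Its log2 change under DSS was -0.06 in WT (95% interval -0.32 to 0.20) and 0.32 in KO (0.06 to 0.59, edgeR adjusted p = 0.189). Slc16a1, with group means of 489 to 587 CPM, changed by -0.14 on the log2 scale in WT (-0.43 to 0.16) and by 0.09 in KO (-0.21 to 0.38), and Slc5a1, with group means of 380 to 429 CPM, by -0.16 (-0.36 to 0.04) and -0.01 (-0.21 to 0.18). None of the 4 tested monocarboxylate carriers was called in any comparison by edgeR or by DESeq2. At an unadjusted p under 0.05, Slc5a8 alone qualified, for DSS in KO and for the difference between the genotypes in the DSS change. Slc16a3, the lactate exporter of glycolytic cells, had only 1.18 to 5.38 CPM per sample, and the partner Bsg had a log2 change of -0.36 under DSS in WT (edgeR adjusted p = 0.0585) and -0.11 in KO.

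Slc2a1 lay at 244, 249 and 193 CPM in untreated WT, 188, 175 and 158 CPM in DSS-treated WT, 181, 199 and 184 CPM in untreated KO, and 159, 138 and 130.1 CPM in KO under DSS. In each genotype the DSS samples were all below the untreated ones, but the differences missed the threshold, at a log2 change of -0.40 in both genotypes (edgeR adjusted p = 0.0737 for WT, 0.0897 for KO). DESeq2 called it lower under DSS in both genotypes, as edgeR did without WT untreated replicate 3. Slc2a5, the fructose carrier, was low, with group means of 2.38 to 7.23 CPM.

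In WT mice, DSS changed carriers in both directions. Of the 79 tested members, 13 (16.5%) passed an adjusted p of 0.05, against 6.3% of all 12522 genes tested. Of these, 9 (11.4%) fell, against 3.5% of all genes, and 4 (5.06%) rose, against 2.8%. The log2 change was above 0 for 39 members and below 0 for 40, with a median of -0.03 over the members and 0.01 over all genes. At an unadjusted p under 0.05 there were 28 members (35.4%), 13 higher and 15 lower, against 17.6% of all genes. Among those that fell were the peptide carrier Slc15a1, the heavy subunit Slc3a1, the Slc1 carriers Slc1a4 and Slc1a1, the sugar carrier Slc2a10, the Slc16 carriers Slc16a5 and Slc16a9 and the orphan carrier Slc22a18. Those that rose were the proton-coupled amino acid carrier Slc36a1, the nucleoside carrier Slc28a3, the sodium-coupled sugar carrier Slc5a9 and the serotonin carrier Slc6a4.

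**Figure D2:**
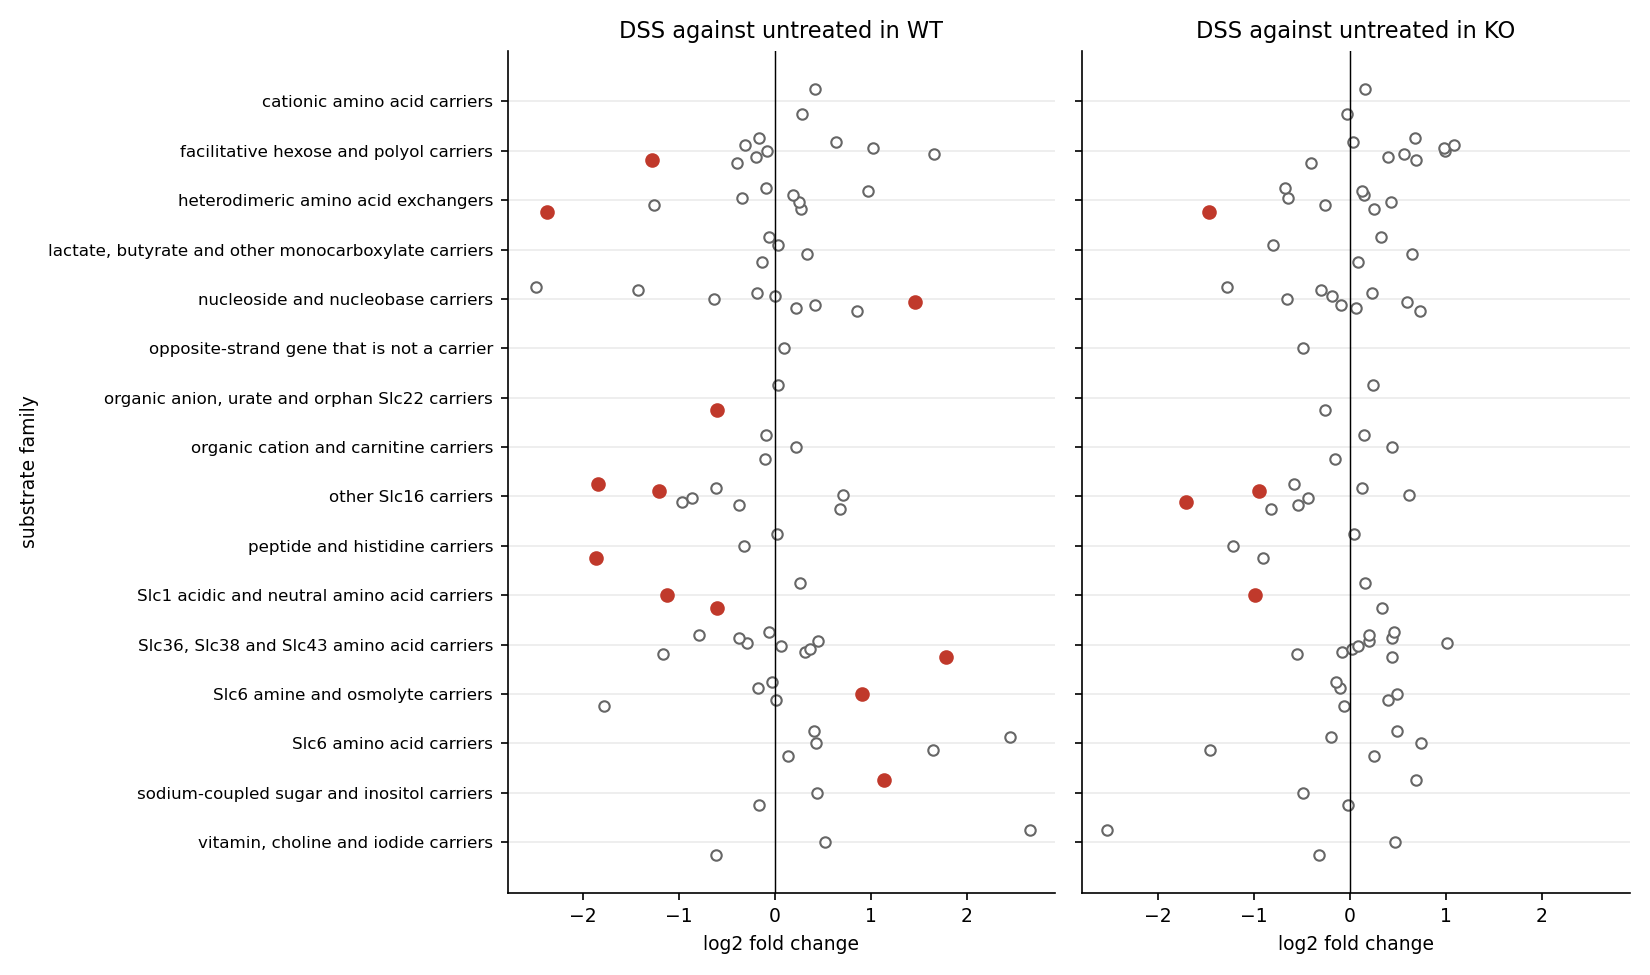
Log2 fold change under DSS of tested members, 1 point per gene, by substrate family, in WT (left) and in KO (right), where filled red points passed the threshold and open points did not. In KO 4 points are filled, all of them below 0, and in WT filled points lie on both sides of 0.

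Among the called members, Slc3a1 fell most. It encodes the heavy subunit that pairs with Slc7a9 in the exchanger of cystine and dibasic amino acids. Its level was 42.9, 37.99 and 35.9 CPM untreated and 6.82, 3.19 and 12.7 CPM under DSS in WT, with no overlap. The fold was 5.19 lower (log2 change -2.38, SE 0.33, edgeR adjusted p = 0.000392). Slc7a9, named here as the known partner and outside the rule for named genes, had a log2 change of -0.09 in WT (edgeR adjusted p = 0.922). For DSS in KO, Slc7a9 was lower at an unadjusted p under 0.05 but was not called. Slc3a1 shares exon bases with Prepl on the opposite strand, and reads of the pair cannot be told apart without strand, but Prepl had a log2 change of -0.29 (edgeR adjusted p = 0.495).

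Slc15a1, which takes up dipeptides and tripeptides with protons, was at 38.6, 42.1 and 25.4 CPM in untreated WT and at 5.61, 12.1 and 11.2 CPM under DSS. It fell 3.65-fold (log2 change -1.87, SE 0.29, edgeR adjusted p = 0.000917). The summed level of 4 markers of small intestinal enterocytes, where Slc15a1 and Slc3a1 are known to be high, was 89.1 to 156 CPM untreated and 24.4 to 28.7 CPM under DSS in WT, with Apoa4 at 0 in both. Fabp2 and Alpi made up most of that sum and fell, whereas Fabp6 was at a mean of 1.05 CPM untreated and 3.09 CPM under DSS (log2 change 1.56, edgeR adjusted p = 0.236). The sum of the colonocyte markers was also lower under DSS, in the ranges given above, and the part of either marker list in these results was not tested.

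Slc16a5, a monocarboxylate carrier relative known mainly for transport of drugs, had 182, 179 and 152 CPM in untreated WT and 83.7, 66.9 and 72.1 CPM under DSS. The groups lay far apart, and the level fell 2.30-fold (log2 change -1.20, SE 0.12, edgeR adjusted p = 2.04e-05). As the highest of the 10 other Slc16 carriers it set that family's summed level, which was 58.2 to 62.1 RPKM untreated and 24.0 to 31.3 RPKM under DSS. Slc16a9, linked to carnitine, had 11.1, 6.39 and 9.87 CPM untreated and 2.27, 2.40 and 2.93 CPM under DSS (log2 change -1.84, edgeR adjusted p = 0.0114). Its groups did not overlap, but without WT DSS replicate 1 or 2 the adjusted p was 0.0563 or 0.0514.

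Among the Slc1 carriers, Slc1a4, an exchanger of alanine, serine and cysteine, was at 33.3, 30.8 and 38.9 CPM untreated and at 15.6, 20.2 and 11.2 CPM under DSS in WT. Its 2.18-fold fall (log2 change -1.12, SE 0.26, edgeR adjusted p = 0.0162) missed the threshold without WT DSS replicate 1 (0.0668) or 3 (0.0840). Slc1a1, the carrier of glutamate, aspartate and cysteine, had a smaller fall of 1.52-fold (log2 change -0.60, edgeR adjusted p = 0.00774), from 183, 140.5 and 138 CPM to 102, 92.5 and 110.2 CPM, and an adjusted p of 0.0509 when only the WT groups were fitted. The related glutamine carrier Slc1a5 was not called, with a log2 change of 0.26 (SE 0.11, edgeR adjusted p = 0.215).

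In the Slc22 family, the carnitine carrier Slc22a5 was at 29.6 to 48.3 CPM in untreated WT and 34.1 to 46.3 CPM under DSS, and these ranges overlapped. The orphan carrier Slc22a18 had 208, 192 and 142 CPM untreated and 117, 131 and 107 CPM under DSS (log2 change -0.60, edgeR adjusted p = 0.0186). Its call was lost without WT untreated replicate 1 or 2 or WT DSS replicate 1 or 3, with adjusted p of 0.0784, 0.0684, 0.0773 and 0.0989, and when only the WT groups were fitted (0.0742).

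Slc2a10, a facilitative sugar carrier, had 21.1, 10.8 and 15.6 CPM in untreated WT and 4.55, 5.32 and 9.76 CPM under DSS. The lowest untreated sample was close to the highest DSS sample. Its 2.43-fold fall (log2 change -1.28, SE 0.34, edgeR adjusted p = 0.0348) was lost without WT untreated replicate 1 or 3, WT DSS replicate 1 or 2 or KO DSS replicate 2, with adjusted p of 0.0514 to 0.155, and when only the WT groups were fitted (0.102).

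Slc36a1, a proton-coupled carrier of small neutral amino acids found on lysosomes and at the cell surface, gave the clearest rise. It was at 8.88, 10.2 and 9.87 CPM in untreated WT and at 30.8, 31.5 and 37.3 CPM under DSS, a 3.44-fold difference between groups far apart (log2 change 1.78, SE 0.18, edgeR adjusted p = 1.29e-05). Slc28a3, which concentrates purine and pyrimidine nucleosides with sodium, rose 2.75-fold from 23.6, 24.4 and 31.8 CPM to 70.9, 57.9 and 90.5 CPM (log2 change 1.46, SE 0.25, edgeR adjusted p = 0.00189). The equilibrative nucleoside carrier Slc29a1 had a log2 difference of -0.64 in the other direction (edgeR adjusted p = 0.124), and its group ranges did not overlap.

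Slc5a9, a sodium-coupled carrier of mannose and fructose, had 60.8, 50.4 and 30.5 CPM untreated and 103, 95.5 and 114 CPM under DSS in WT. It rose 2.21-fold (log2 change 1.14, SE 0.20, edgeR adjusted p = 0.00276). Slc6a4, the serotonin carrier, rose 1.87-fold, from 37.7, 32.1 and 30.2 CPM to 60.01, 56.3 and 71.1 CPM (log2 change 0.90, SE 0.16, edgeR adjusted p = 0.00259). For all 4 genes that rose, every DSS sample in WT was above every untreated one. Called genes were selected by the same comparison, so a lack of overlap in them adds no support, here or elsewhere. The share of all genes without overlap was not counted. The taurine carrier Slc6a6 and the creatine carrier Slc6a8, of the same family as Slc6a4, had log2 changes of -0.18 and -0.03 and were not called.

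**Figure D3:**
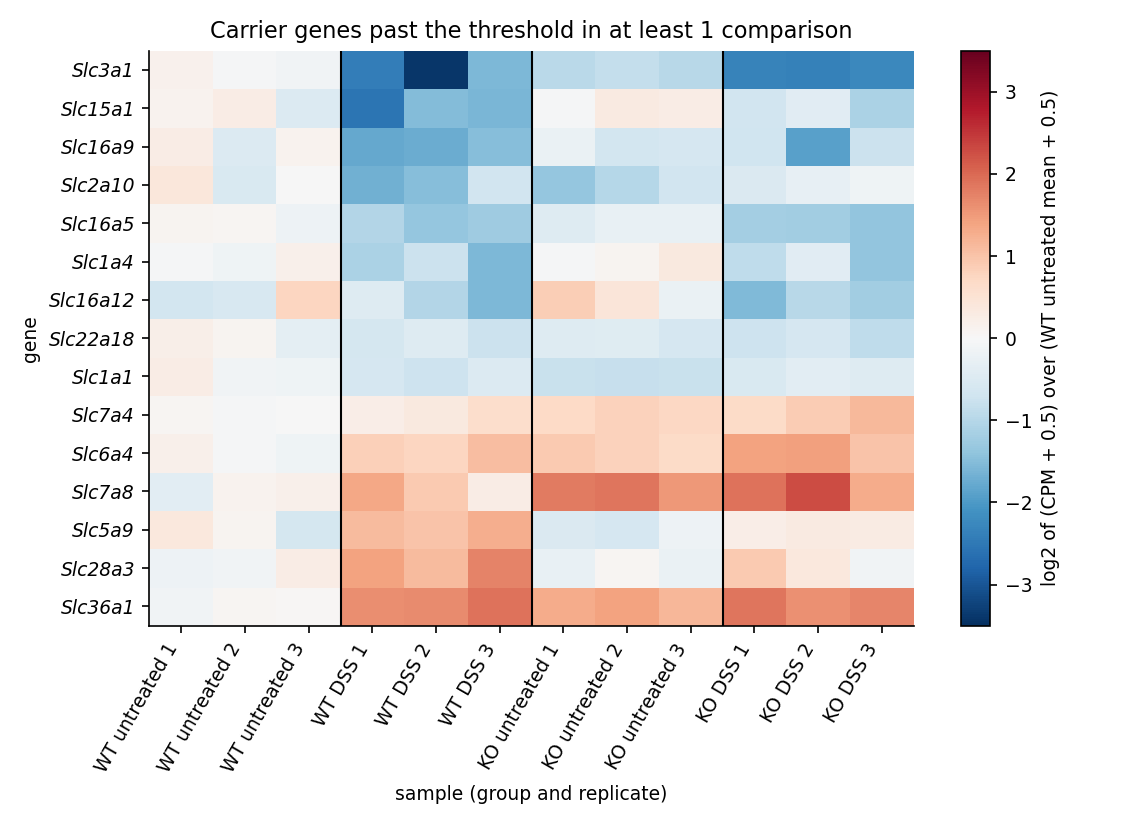
Carrier genes called in at least 1 comparison, 1 column per sample, coloured by log2 of the CPM plus 0.5 over that of the untreated WT mean (blue lower, red higher). Slc36a1 is red in all 9 samples outside untreated WT, and Slc3a1 is blue in those 9.

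In KO mice, 4 of the 79 tested members (5.06%) passed for DSS against untreated, against 3.92% of all genes, and all 4 fell, against 2.04% of all genes in that direction. None rose in the main edgeR fit, where 1.88% of all genes did. At an unadjusted p under 0.05 there were 9 members higher and 11 lower (25.3% of the tested members, against 15.9% of all genes), and DESeq2 called 2 higher and 6 lower. The median log2 change was 0.06 over members and 0.02 over all genes.

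The 4 were Slc16a5, Slc3a1, Slc1a4 and Slc16a12. Slc16a5 had 126, 144 and 142 CPM untreated and 74.6, 73.8 and 64.7 CPM under DSS (log2 change -0.95, SE 0.12, edgeR adjusted p = 0.000476). Slc3a1 had 20.0, 21.4 and 19.6 CPM untreated and 7.23, 7.10 and 7.74 CPM under DSS (log2 change -1.46, SE 0.33, edgeR adjusted p = 0.0227). Slc1a4 had 33.1, 36.4 and 43.5 CPM untreated and 18.3, 25.7 and 13.0 CPM under DSS (log2 change -0.99, SE 0.25, edgeR adjusted p = 0.0444). In each of them the untreated and DSS samples did not overlap, and these 3 had also fallen in WT.

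Slc16a12, a creatine carrier, was called in KO and not in WT. It had 29.02, 21.4 and 13.3 CPM in untreated KO and 5.12, 7.84 and 6.498 CPM under DSS (log2 change -1.70, SE 0.43, edgeR adjusted p = 0.0375), and its log2 change in WT was -0.97 (edgeR adjusted p = 0.238). The difference between these changes did not pass (edgeR adjusted p = 0.782). With the replicate number as a block, since same-numbered KO samples deviated together, the count was 2, since Slc16a12 (edgeR adjusted p = 0.0792) and Slc1a4 (0.0581) were lost. Leaving out any 1 of the 6 KO samples left 1 or 2 of the members called, and Slc3a1 was lost each time, with adjusted p of 0.0613 to 0.0920. Slc1a4 was lost without any of these except KO DSS replicate 2, and without WT untreated replicate 2 or WT DSS replicate 1 (0.0548 to 0.168), and Slc16a12 without any except KO untreated replicate 3, and without WT DSS replicate 2 (0.0527 to 0.150).

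Across the 79 tested members, the log2 changes under DSS in WT and in KO, which share no sample, had a Pearson r of 0.24, and the same value over all genes tested was 0.33. Of the 13 members called in WT, 10 were not called in KO, among them Slc15a1, with a log2 change in KO of -0.90 (edgeR adjusted p = 0.0920), Slc28a3 with 0.60 (0.244), Slc5a9 with 0.69 (0.0836) and Slc6a4 with 0.50 (0.103). DESeq2 called Slc15a1, Slc5a9 and Slc6a4 in KO as well. With no filter or with only the KO groups fitted, edgeR also called Slc15a1 and Slc5a9 in KO. Without WT untreated replicate 3 it called Slc5a9 too. The share of all genes called in WT that were not called in KO was not counted. A call in 1 genotype and not in the other is no test of a difference, and the test of the difference is given below.

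**Figure D4:**
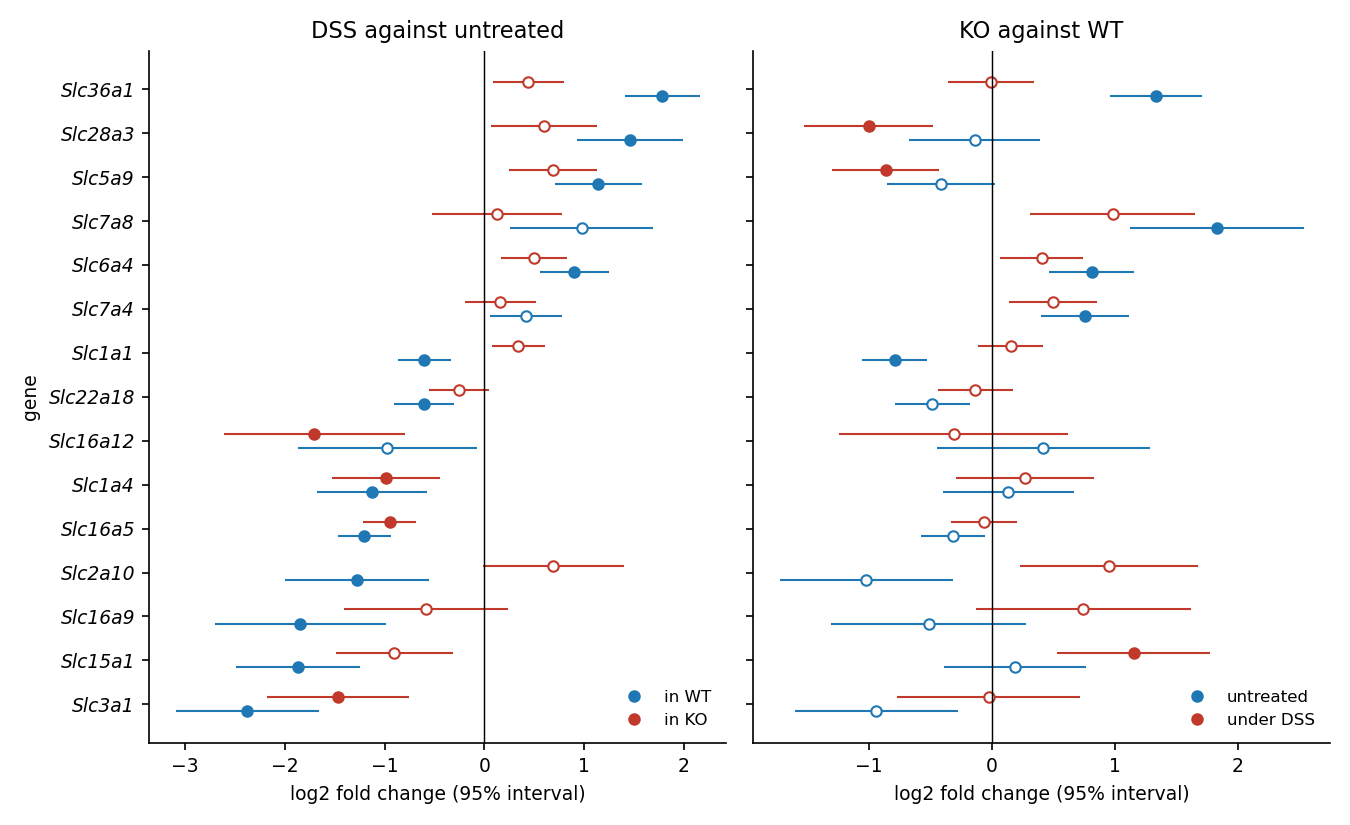
Log2 fold change with its 95% interval for carrier genes called in at least 1 comparison, for DSS against untreated (left, WT blue, KO red) and for KO against WT (right, untreated blue, under DSS red), where filled points passed the threshold and open points did not. The WT and KO intervals on the left lie apart for Slc36a1, Slc1a1 and Slc2a10, and the horizontal scales of the panels differ.

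The DSS change itself differed between the genotypes for 2 of the 79 members (2.53%), Slc36a1 and Slc1a1, against 1.7% of all genes. Slc1a1 was the 1 with a higher value in KO (1.27%, against 1.17% of all genes) and Slc36a1 the 1 with a lower value (1.27%, against 0.527%). Slc36a1 was already at 24.5, 26.2 and 22.3 CPM in untreated KO and was at 36.7, 30.0 and 32.5 CPM in KO under DSS. The untreated KO samples lay above all untreated WT samples and below all DSS samples of either genotype. The DSS change was 1.34 smaller on the log2 scale in KO (value -1.34, SE 0.24, edgeR adjusted p = 0.00759), with changes of 1.78 in WT and 0.44 in KO.

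Slc1a1 went from 90.0, 88.6 and 88.8 CPM in untreated KO to 107, 118 and 113 CPM under DSS, a log2 change of 0.34 (edgeR adjusted p = 0.170), while in WT it fell by 0.60. The difference between the changes was 0.94 (SE 0.17, edgeR adjusted p = 0.0100), and the groups of each genotype did not overlap. Slc2a10 had the same arrangement with larger spread, 5.91, 7.68 and 9.84 CPM in untreated KO and 10.9, 12.9 and 14.1 CPM under DSS. Its difference in DSS change was 1.97 (SE 0.47, edgeR adjusted p = 0.0518) and was not called. It was called by DESeq2, and by edgeR with no filter, with at least 10 counts in every sample, and without WT untreated replicate 2 or WT DSS replicate 3.

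Promoter sequences are shown for Slc36a1 and Slc1a1, whose DSS change differed between genotypes, and for Slc3a1, which fell in both. They were taken from RefSeq (GRCm38.p6), which gave a window for 12 of the 16 called members, and each ends at the base before the RefSeq or GENCODE start of the gene. Capitals mark a match to a searched motif.
Slc36a1, chr11:55204090-55204339, + strand: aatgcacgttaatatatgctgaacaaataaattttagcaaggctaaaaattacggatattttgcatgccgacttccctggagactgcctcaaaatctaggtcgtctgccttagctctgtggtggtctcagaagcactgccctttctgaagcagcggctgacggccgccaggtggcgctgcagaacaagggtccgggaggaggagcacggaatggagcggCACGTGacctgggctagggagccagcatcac
Slc1a1, chr19:28834885-28835048, + strand: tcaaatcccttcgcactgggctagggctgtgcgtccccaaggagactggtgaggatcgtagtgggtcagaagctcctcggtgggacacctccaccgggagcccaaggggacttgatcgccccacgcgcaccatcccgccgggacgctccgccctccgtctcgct
Slc3a1, chr17:85028097-85028346, + strand: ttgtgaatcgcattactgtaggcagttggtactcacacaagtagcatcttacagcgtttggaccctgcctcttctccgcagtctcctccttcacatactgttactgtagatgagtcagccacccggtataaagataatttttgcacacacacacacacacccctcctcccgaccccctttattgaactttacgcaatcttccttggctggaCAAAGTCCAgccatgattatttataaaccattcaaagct
Motifs were searched on both strands of the 250 bases before the start. CACGTG, the E-box bound by factors such as Tfeb, began 31 bases before the start of Slc36a1 and was found in 2 of the 12 windows, against 6.02% of all 32851 promoter windows. CAAAGTCCA, an Hnf4-type site, began 39 bases before the start of Slc3a1 and was in 1 of the 12, against 0.384% of all. GGNNNTTCC, a kB-type motif, was in 2 of the 12 (Slc16a9 and Slc22a18), against 15.7% of all, and TGATGCAA, of the amino acid response type, was in none, against 0.791%. None of the 4 motifs was in the window of Slc1a1. These matches describe the letters of the windows, and binding was not measured.

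Between untreated mice, 5 of the 79 members differed (6.33%), against 3.48% of all genes. In KO, 4 were higher (5.06%), against 1.72% of all genes, and 1 was lower (1.27%), against 1.76%. At an unadjusted p under 0.05 there were 18 members (22.8%), 11 higher and 7 lower, against 15.4% of all genes. Slc7a8, a light chain for neutral amino acids that pairs with Slc3a2, was 3.56-fold higher in KO, at 21.1, 22.2 and 16.96 CPM against 4.22, 6.22 and 6.48 CPM in WT (log2 difference 1.83, SE 0.33, edgeR adjusted p = 0.00582). Slc36a1 was 2.52-fold higher (log2 difference 1.34, SE 0.17, edgeR adjusted p = 0.000490). Both had groups that did not overlap. This comparison shares its WT untreated samples with that of DSS in WT.

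Slc6a4 was at 63.8, 58.2 and 53.7 CPM in untreated KO, each above the untreated WT values (log2 difference 0.81, SE 0.16, edgeR adjusted p = 0.0105), but without KO untreated replicate 1 its adjusted p was 0.0555. Slc7a4, placed with the cationic amino acid carriers by sequence, was at 36.1, 39.0 and 36.4 CPM in KO and 22.99, 21.3 and 21.6 CPM in WT (log2 difference 0.76, SE 0.17, edgeR adjusted p = 0.0223). Its groups were well apart, yet leaving out any 1 untreated KO sample or WT untreated replicate 2 gave an adjusted p of 0.0625 to 0.0891, and fitting only the untreated groups gave 0.0577. Slc1a1 was the gene that was lower in KO, 1.73-fold (log2 difference -0.79, SE 0.12, edgeR adjusted p = 0.00246). It lies on chromosome 19, as Nfkb2 does, 17.4 Mb from it.

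The count for untreated mice was 3 without KO untreated replicate 1 and 9 without WT untreated replicate 3. Leukocyte marker sums were 47.6 to 63.6 CPM in untreated KO and 12.6 to 20.5 CPM in untreated WT, and colonocyte marker sums were lower in untreated KO. Most of that difference in the colonocyte sum was Car1, at a mean of 7055 CPM in WT and 2547 CPM in KO. Car4 was higher in KO, at 887 against 554 CPM (edgeR adjusted p = 0.0346), and Aqp8 was at 475 against 313 CPM and was not called. Goblet marker sums were 18330 to 28840 CPM in untreated WT and 12680 to 14350 CPM in untreated KO. Of these markers, Muc2, Clca1 and Fcgbp had lower means in KO, and Tff3 and Spdef higher means. Enteroendocrine sums were 71.09 to 98.22 CPM in untreated WT and 105.5 to 133.6 CPM in untreated KO. Tuft sums were 16.01 to 37.78 and 6.853 to 12.3 CPM, and those of crypt base and proliferation markers overlapped. The part of all these markers in the differences was not tested.

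**Figure D5:**
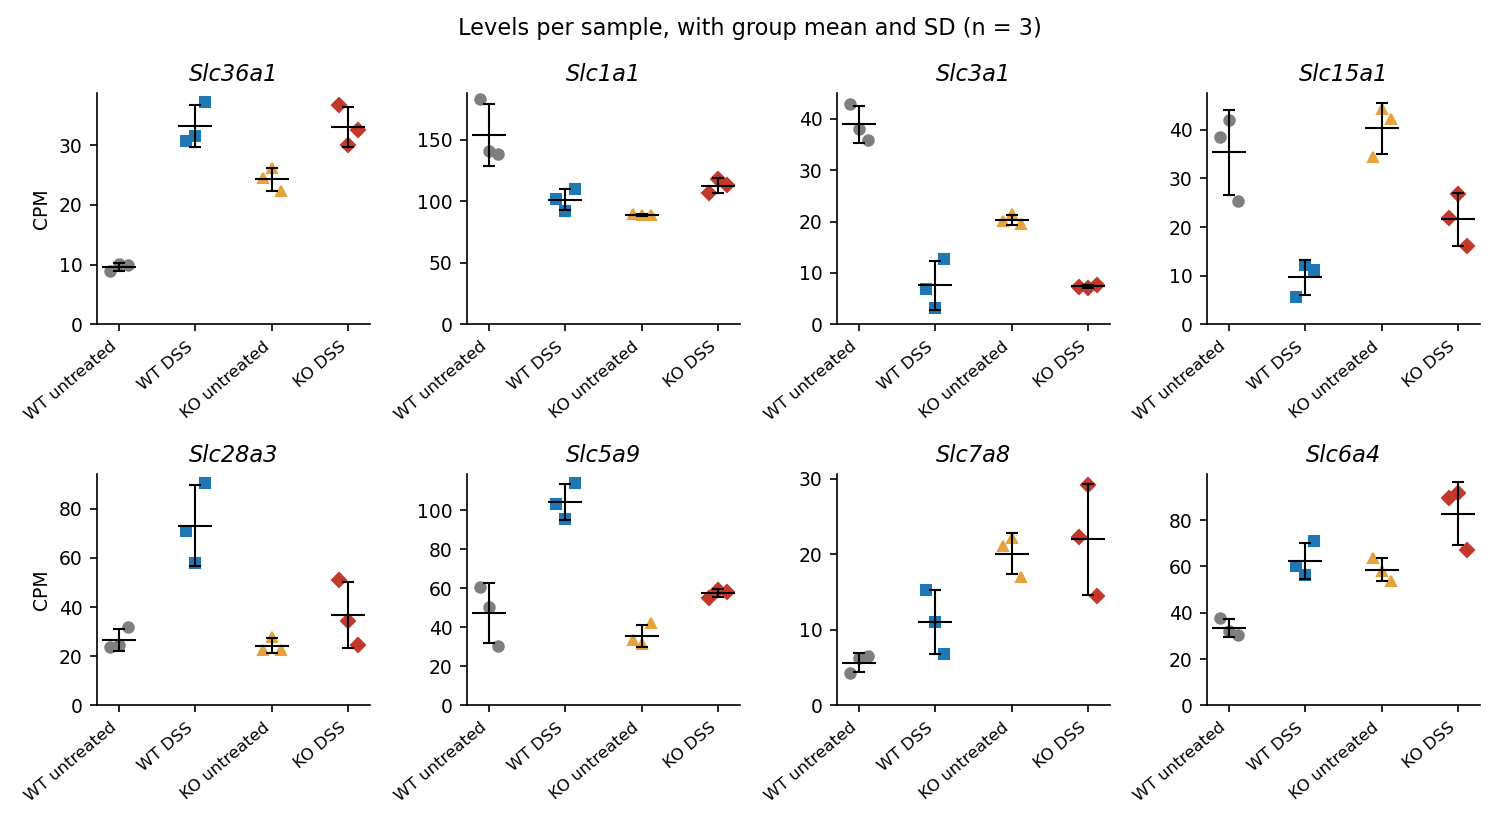
CPM per sample of 8 carrier genes in the 4 groups, with the group mean (wide line) and SD (n = 3). Slc36a1 is lowest in untreated WT, at 8.88 to 10.2 CPM, and Slc28a3 and Slc5a9 are highest in WT under DSS.

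Under DSS, 3 of the 79 members differed between genotypes (3.8%), against 3.11% of all genes. At an unadjusted p under 0.05 there were 14 (17.7%), 8 higher and 6 lower, against 14.6% of all genes. Slc15a1 was 2.23-fold higher in KO (1 of 79, 1.27%, against 1.77% of all genes), at 21.9, 26.8 and 16.04 CPM against 5.61, 12.1 and 11.2 CPM in WT (log2 difference 1.16, SE 0.29, edgeR adjusted p = 0.0465). Slc28a3 and Slc5a9 were lower (2 of 79, 2.53%, against 1.34%). Slc28a3 was at 51.0, 34.5 and 24.5 CPM in KO, all below the WT samples (log2 difference -0.999, SE 0.24, edgeR adjusted p = 0.0406). Slc5a9 was at 55.2, 59.0 and 58.1 CPM in KO, again all below WT (log2 difference -0.86, SE 0.20, edgeR adjusted p = 0.0331).

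Goblet marker sums were 14190 to 16630 CPM in WT and 25430 to 29740 CPM in KO under DSS, with Muc2, Clca1 and Fcgbp called higher in KO. Leukocyte marker sums were 41.9 to 48.2 CPM in WT and 84.4 to 118 CPM in KO, with Ptprc and Lyz2 called higher. Of the colonocyte markers, Car4, Aqp8 and Guca2a were called higher in KO, and the means of Car1 and Guca2b were also higher. Krt20 and Ceacam20 had lower means in KO, at 741 against 959 CPM and 234 against 273 CPM, with no overlap. The colonocyte marker sums of the genotypes overlapped, at 2708 to 3006 CPM in WT and 2866 to 3385 CPM in KO. The part of all these markers in the 3 differences was not tested.

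No member was called in both genotype comparisons, and the share of all genes called in both was not counted. At an unadjusted p under 0.05, Slc6a4, Slc7a4, Slc7a8 and Slc6a20a were higher in KO in both, and Slc2a1 was lower in both. Slc2a10 was lower in untreated KO and higher in KO under DSS. With no filter, edgeR called Slc7a8 and Slc6a20a in both. All 3 calls under DSS were near the threshold. Slc15a1 was lost on leaving out any of 10 of the 12 samples, with adjusted p of 0.0523 to 0.188, the exceptions being KO DSS replicate 3 and WT untreated replicate 3. Slc28a3 was lost without KO untreated replicate 1 or 3, KO DSS replicate 2 or 3 or WT DSS replicate 1 or 3 (0.0559 to 0.179), and Slc5a9 without any 1 of the 6 DSS samples (0.0688 to 0.131). No member was called by edgeR without KO DSS replicate 2, WT DSS replicate 1 or WT DSS replicate 3. The count was 1 without KO untreated replicate 1 or 3, KO DSS replicate 1 or 3 or WT DSS replicate 2, and 5 without WT untreated replicate 3. Just above the threshold was Slc6a20a, a proline carrier named after its values were seen. It was at 30.9, 29.4 and 19.4 CPM in KO under DSS against 10, 11.98 and 11.4 CPM in WT (log2 difference 1.25, SE 0.32, edgeR adjusted p = 0.0529). Slc6a20a shares exon bases with Ccr9, Gm17120 and Gm17200 on the opposite strand, and 15.3% of its short sequence words with Slc6a20b. Its counts are therefore uncertain, and the part of these genes in the difference was not tested.

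Genes that act with the carriers were read from 6 lists. Among carrier partners and chaperones, 1 of 6 tested genes fell under DSS in each genotype, the scaffold Slc9a3r1, by 0.79 on the log2 scale in WT and by 0.81 in KO (edgeR adjusted p = 0.00248 and 0.00429). Of 4 tested regulators of carrier turnover, the kinase Sgk1, known to keep carriers at the membrane, fell from 190.1 ± 5.68 to 38.4 ± 1.74 CPM in WT and from 150.4 ± 17.4 to 53.7 ± 4.73 CPM in KO (SD, n = 3), with log2 changes of -2.31 and -1.49 (edgeR adjusted p = 2.30e-08 and 1.7e-05). Nedd4, a ubiquitin ligase, fell in KO by 0.43 (edgeR adjusted p = 0.0441). Of 5 tested brush border hydrolases, 1, the dipeptidase Dpep1, fell under DSS in both genotypes, from 687 ± 144 to 93.2 ± 6.40 CPM in WT and from 359 ± 20.9 to 173 ± 6.91 CPM in KO (SD, n = 3).

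Among 6 differentiation factors of absorptive cells, Cdx2 and Pparg fell under DSS in both genotypes, by 1.52 and 1.09 on the log2 scale in WT and by 0.76 and 0.60 in KO. Hnf4a had log2 changes of -0.06 and -0.21 and was not called. Of 8 tested amino acid response genes, Atf3 rose in both (log2 change 1.30 in WT and 0.70 in KO), and Phgdh, the first enzyme of serine synthesis, fell in KO (log2 change -1.12, edgeR adjusted p = 0.0202). Atf4 and Asns, a factor of that response and its target, had log2 changes of 0.17 and 0.01 in WT. On the list of 5 genes named for glucose sensing, the only gene called in any comparison was Hif1a, which encodes a hypoxia factor. Hif1a was lower in KO than in WT under DSS (log2 difference -0.58, edgeR adjusted p = 0.0400). Txnip, on the same list, had log2 changes under DSS of -0.55 in WT and 0.04 in KO (edgeR adjusted p = 0.176 and 0.953). In untreated mice, Dpep1 and Pparg were lower in KO (log2 differences -0.94 and -0.69), and under DSS Dpep1 and Sgk1 were higher in KO (0.89 and 0.48).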

How the data were processed

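Counts of reads per gene were deposited, 1 column for each of the 12 samples, as whole numbers that the authors had not normalized as far as the values show. Per the submitters' processing notes, STAR 2.5.2b, featureCounts 1.5.0 and the builds GRCm38 and mm10 were used, and the annotation release and strand setting are not given in the sources used here. Per the labels' protocols, libraries were made from 2 ng of total RNA (RNA integrity number 7.2 to 9.2, median 8.8) by SMART-seq2, without strand or molecular identifiers, so floors cover counting error only. ERCC RNA was added per the labels, and no ERCC row was used here.

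IDs were matched without version to GENCODE M21 (GRCm38), 46005 of 46517. Members and gene lists were chosen with earlier results of these data known. In edgeR 4.0.16 (R 4.3.3, limma 3.58.1), filterByExpr kept 12522 genes with 99.8% of all counts, TMM scaled the libraries, and 1 coefficient per group was fitted over the 12 samples. The 5 contrasts were tested by the two-sided quasi-likelihood F test with Benjamini-Hochberg adjustment over all 12522 genes, and an adjusted p under 0.05 counted as called. The common coefficient of variation was 0.227. On data simulated for DSS against untreated in WT, 59% of 200 genes changed 2-fold were recovered (12207 genes tested) and 93% of 200 changed 4-fold (12222 genes). The changed genes were drawn only from genes above a minimum expected count, so recovery of genes with lower counts was not simulated. Each pair of replicates differed by more than sampling noise.

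Named genes were every member called in any contrast, the highest member of each family, a list of carriers well known in the colon, and related genes that were called, with full statistics for the largest changes at a mean log2 CPM of at least 3. The titles number the samples 1 to 3. Same-numbered samples deviated together in KO (r = 0.204, 0.106 and 0.127 for DSS against untreated), so the run with the replicate number as a block is given for that comparison. The main fit used no pairs, and the block fitted the same effect of a number in WT and KO. In WT these values were 0.014, 0.12 and 0.128, and between genotypes they were -0.175 to -0.010. In WT as in KO, each untreated sample correlated most with the DSS sample of its own number. Alternatives were other size factors, no filter, at least 10 counts in every sample, the replicate block, only the groups compared, DESeq2 1.42.0, and leaving out each sample. Of the members, 14 share over 5% of their 50-base words with other genes and 25 share exon bases with another gene, and such counts are uncertain. Among the called members, Slc16a5, Slc16a9, Slc1a1, Slc3a1 and Slc7a4 overlap a gene on the opposite strand. Results of 1 called member are not reported here, and the counts of members include it.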

Additional observations from a re-analysis of the deposited data

Results flagged for a closer look

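Among the members and the genes of the related lists, the DSS change differed between the genotypes by a test of the difference itself for 4. They were 2 of the 79 tested members (2.53%), 1 of 4 tested regulators of carrier turnover and 1 of 5 tested brush border hydrolases. The share of all genes tested was 1.7%, and the other related lists had no such gene. Values are the log2 change in KO minus that in WT. Cell type markers that are on none of these lists, such as Clca1 and Car1, were not looked at for this. For Slc36a1 the value was -1.34 (edgeR adjusted p = 0.00759), with all untreated KO samples above all untreated WT samples. For Slc1a1 it was 0.94 (edgeR adjusted p = 0.0100), with all WT samples lower under DSS and all KO samples higher. For the dipeptidase Dpep1 it was 1.82 (edgeR adjusted p = 7.6e-05), and for the kinase Sgk1 it was 0.82 (edgeR adjusted p = 0.0156). Both Dpep1 and Sgk1 fell under DSS in each genotype, by more in WT. The summed level of colonocyte markers was 10370 to 11560 CPM untreated and 2708 to 3006 CPM under DSS in WT, and 6081 to 6720 CPM and 2866 to 3385 CPM in KO. In untreated mice most of the difference in that sum was Car1 (mean 7055 CPM in WT, 2547 CPM in KO), while Car4 was higher in KO (554 and 887 CPM, edgeR adjusted p = 0.0346). The part of these markers in the differences was not tested.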

How the results depend on the processing

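Of the 27 called pairs of gene and comparison, 14 were called under every alternative run, and none changed direction in 484 alternative values, of which 415 stayed past the threshold and 69 did not. The count for DSS in WT was 13, with 17 with no filter, 15 by DESeq2 and 10 with only the groups compared, and ranged from 9 to 14 on leaving out 1 sample. The count for DSS in KO, 4, was 7 with no filter, 8 by DESeq2, 2 with the replicate block, and 1 to 6 on leaving out 1 sample. The count for untreated mice, 5, was 10 with no filter, 8 by DESeq2, and 3 to 9 on leaving out 1 sample. The count between genotypes under DSS, 3, was 7 with no filter, 5 with only the groups compared, 1 with the replicate block, where the pairing was not borne out, and 0 to 5 on leaving out 1 sample by edgeR, where 14 members had an unadjusted p under 0.05 with all samples and DESeq2 called 4. The count for the difference in DSS change, 2, was 5 with no filter and 2 to 3 on leaving out 1 sample. With no filter more genes were tested. The cause of the other shifts was not tested. With the block the counts were 13 for DSS in WT, 6 for untreated mice and 2 for the difference in DSS change. The alternative with only the groups compared could not be run for the difference in DSS change, which uses all 4 groups. In the simulation, changes of 2-fold were often missed. A carrier that was not called may therefore have changed by 2-fold or more, unless its interval excludes this. The intervals given above for DSS in each genotype exclude a 2-fold change for Slc6a14, Slc5a8, Slc16a1 and Slc5a1. No statement was possible for the 65 members with too few counts.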

Other observations

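Carriers below the testing limit were present in part of the samples. Slc1a3, a glutamate carrier of glia and other cells, had 70 counts over the 12 samples, with 0 in 3 of them and 3.41 CPM in the highest, an untreated KO sample. Slc23a1, a vitamin C carrier of epithelia, had 51 counts, with 2.12 CPM in the highest, a WT sample under DSS, while Slc23a2, the other vitamin C carrier, had 41.8 to 117 CPM. Among the carriers with no count in any sample were Slc5a12, the second sodium-coupled carrier of lactate, Slc6a18, a kidney carrier of neutral amino acids, Slc28a1, a pyrimidine nucleoside carrier, and Slc7a13, a kidney light chain. The neutral amino acid carrier of the small intestine, Slc6a19, was at 0 to 3.42 CPM. The cystine carrier Slc7a11 had 1.33 to 6.94 CPM, Slc7a5 had 1.22 to 3.64 CPM, and the nucleoside carrier Slc28a2, which shares many of its words with a close copy, had 0.655 to 4.98 CPM. The biotin and pantothenate carrier Slc5a6 was at 18.2 to 54.9 CPM and was called in no comparison.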
